A study of Mus musculus with 14 samples.

Results

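The 10 genes described here encode the leptin receptor (Lepr) and 9 precursors of neuropeptides that are made by neurons of the hypothalamus (Pomc, Hcrt, Oxt, Avp, Trh, Gal, Pmch, Ghrh and Cartpt). They were taken by name, with earlier results of these data known, and all 10 were found among the 17927 genes counted. Leptin, a hormone of fat tissue, acts on neurons of the arcuate nucleus that express its receptor, among them neurons that make Pomc and Cartpt, and these lower feeding. Neurons of the lateral hypothalamus make Hcrt or Pmch, which act on wakefulness and feeding, and neurons of the paraventricular and supraoptic nuclei make Oxt, Avp and Trh. Lepr is also known from the choroid plexus, the meninges and blood vessels of the brain, and Cartpt, Trh and Gal are also made outside the hypothalamus.

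RNA-SEQ was run on whole, untreated brains at postnatal day 2 (P2), 7 from WT mice and 7 from Capn15 KO mice, to find mRNAs whose abundance changes when the protease Capn15 is lost. The methods name C57BL/6J as the strain behind the mouse lines, and a lacZ-Neo and a floxed Capn15 allele, without stating which allele these Capn15 KO brains carried. The column names of the counts place the brains in 6 litters, named A to F here. Each Capn15 KO brain has a WT brain of its own litter with the same replicate number. Litter B gave replicates 2 and 3 of both genotypes, so its 2 pairs are set by number alone and are not independent. The WT brains came from 2 females and 5 males, and the Capn15 KO brains from 4 females and 3 males. In replicates 1 to 6 the pair differed in sex. The Capn15 KO brain was the female in replicates 1, 2, 3 and 6 and the male in replicates 4 and 5. The model separates sex from genotype by setting these opposite pairs against each other, and through litter F, where both brains were male. All samples carry 1 batch label. The labels give neurons as the cell type, but markers of choroid plexus, meninges and endothelium were counted in every library, so the values are those of whole brain.

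Libraries held from 37620954 to 70910163 counts. Before scaling, a gene with 3 counts was at 0.0423 to 0.0797 CPM (counts per 1000000 counts of the library). The CPM of genes given below were scaled with TMM factors. As a check of the labels, Capn15 averaged 25.4 ± 3.07 CPM over the WT brains and 14.5 ± 2.67 CPM over the Capn15 KO brains (both SD, n = 7). In litter F it went against the labels, with 18.7 CPM in the library labelled WT replicate 7 and 20.2 CPM in the library labelled Capn15 KO replicate 7. The library labelled WT replicate 7 also held low levels of some hypothalamic transcription factors. It had the lowest level of the 14 libraries for 11 of 19 of them, and WT replicate 2 had the highest for 9. How often these libraries are lowest or highest over all genes was not computed. Fezf1, a factor of the ventromedial hypothalamus, was at 0.786 CPM in the library labelled WT replicate 7 and between 2.58 and 4.24 CPM in the other libraries. Six6, named after its values were seen, was at 0.140 CPM there (8 counts) and between 0.718 and 1.27 CPM elsewhere. Of the 9 peptide genes, Pomc, Avp and Ghrh were lowest in the same library, while Gal was highest there, at 3.06 CPM, and Hcrt, Pmch and Cartpt were above the median of the other libraries. Values without litter F are therefore given beside those that it moved most. In a whole brain, fewer cells of a type and less RNA in each cell cannot be told apart.

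Oxt and Avp lie side by side on chromosome 2 of GRCm38, Oxt at chr2:130576173-130577054 on the plus strand and Avp at chr2:130580620-130582554 on the minus strand, 3565 bases apart. Each has 3 exons, and each precursor carries a neurophysin, the protein that binds the hormone in its granule. The stretches below are shown because the transcripts share an identical run of 127 bases, in capitals, over exons 1 and 2 (Oxt chr2:130576328-130576715 on the plus strand, Avp chr2:130581133-130582411 on the minus strand, introns left out), between 12 further bases on each side.
Oxt: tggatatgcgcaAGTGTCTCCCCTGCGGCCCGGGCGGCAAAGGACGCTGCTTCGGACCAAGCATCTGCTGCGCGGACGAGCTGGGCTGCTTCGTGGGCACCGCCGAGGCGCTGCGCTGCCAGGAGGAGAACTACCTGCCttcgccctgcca
Avp: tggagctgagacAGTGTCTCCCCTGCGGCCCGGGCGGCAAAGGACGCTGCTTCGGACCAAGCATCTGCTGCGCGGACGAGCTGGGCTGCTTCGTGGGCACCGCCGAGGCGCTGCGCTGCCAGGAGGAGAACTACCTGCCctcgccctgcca
The run makes up 23.6% of the 537 bases of the Oxt transcript and 22.0% of the 577 bases of the Avp transcript. How reads that fit both genes were counted is not given in the sources used here, so part of either count is uncertain.

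The 250 bases before the start of each gene, from RefSeq on GRCm38.p6, are shown for the same pair, with Oxt at chr2:130575919-130576168 on the plus strand and Avp at chr2:130582589-130582838 on the minus strand. Capitals mark AGGTCA or its reverse complement TGACCT, to which nuclear receptors can bind, and CACGTG, an E-box that is the same on both strands.
Oxt: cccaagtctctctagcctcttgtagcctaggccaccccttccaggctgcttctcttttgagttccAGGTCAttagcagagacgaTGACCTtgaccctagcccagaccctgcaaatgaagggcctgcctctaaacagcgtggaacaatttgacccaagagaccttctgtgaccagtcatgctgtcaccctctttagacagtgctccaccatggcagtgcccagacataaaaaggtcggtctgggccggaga
Avp: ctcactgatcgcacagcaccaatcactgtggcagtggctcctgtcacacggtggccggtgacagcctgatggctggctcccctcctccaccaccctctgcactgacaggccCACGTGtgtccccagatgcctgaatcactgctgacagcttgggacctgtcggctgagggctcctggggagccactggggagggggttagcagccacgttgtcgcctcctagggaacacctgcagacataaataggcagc
The Oxt window held AGGTCA from base 185 to 180 and TGACCT from base 166 to 161 before the start, and the Avp window held CACGTG from base 139 to 134. Of 32851 mouse promoter windows of this length, 14.02% held AGGTCA or TGACCT and 6.02% held CACGTG. The windows of Pomc, Trh and Ghrh also held AGGTCA or TGACCT, and that of Cartpt held TGACGT and its reverse complement ACGTCA, overlapping each other, which 6.47% of windows held on either strand. Binding of factors was not measured, and the letters alone do not show a site.

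Per length, Avp and Pmch stood highest, while Oxt and Hcrt, made in the same regions, were among the lowest. Avp, which encodes vasopressin, was at 8.002 ± 2.13 CPM per kb of exon (SD, n = 14) and Pmch, which encodes melanin-concentrating hormone, at 6.73 ± 1.23 CPM per kb. Avp was above Pmch in 11 of the 14 libraries, so their order varied between brains, while Pmch was above the next gene in all 14. Trh (thyrotropin-releasing hormone) followed at 3.94 ± 0.529, Gal (galanin) at 3.17 ± 0.460 and Cartpt (the CART peptide) at 2.78 ± 0.249 CPM per kb. Lepr, with 7049 bases of exon over its annotated transcripts, was at 1.80 ± 0.273 CPM per kb, below Cartpt in every library. The lowest were Oxt at 0.992 ± 0.397, Ghrh (growth hormone-releasing hormone) at 0.831 ± 0.172, Pomc at 0.763 ± 0.137 and Hcrt (orexin) at 0.714 ± 0.177 CPM per kb. Neighbours among these last genes exchanged places in 4 or 5 of the 14 libraries, and their SDs overlap. Pmch shares 58.1% of its exon bases with Parpbp on the other strand, and if strand was ignored in counting, reads of the genes cannot be told apart.

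**Figure D1:**
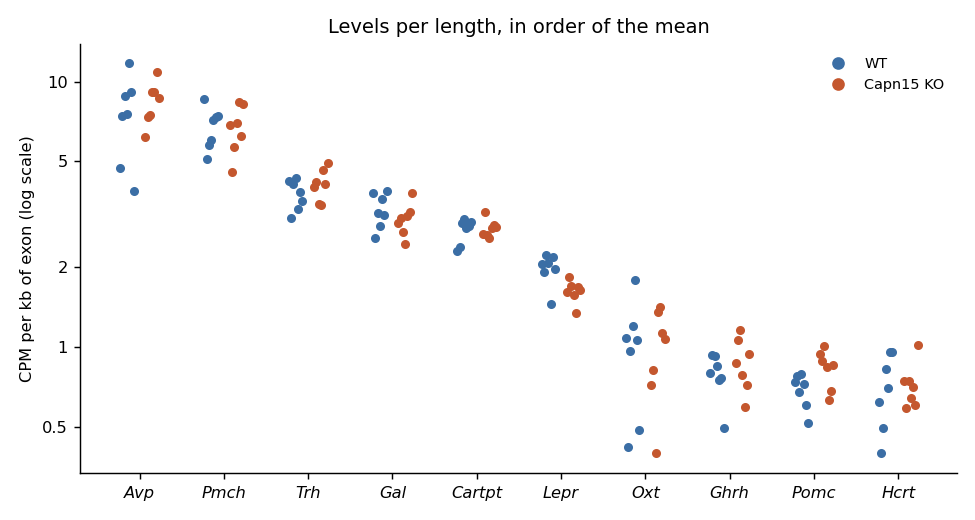
CPM per kb of exon on a log axis for each of the 10 genes in the 7 WT and 7 Capn15 KO libraries, in order of the mean over 14 libraries. Avp and Pmch lead at 8.002 and 6.73 CPM per kb and Hcrt is lowest at 0.714, and the points of the last 4 genes lie over the same range.

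How far a gene varied between brains beyond counting error differed widely. Over all 14 libraries the SD of Oxt was 40.0% of its mean against a counting error of 20.4% at its median count, and that of Avp was 26.7% against 7.10%. Pmch varied by 18.3% against 6.42%, and Lepr by 15.2% against 4.19%. Cartpt varied by 8.97% against 7.87% and Ghrh by 20.7% against 20%, which leaves little beyond counting. The counts were small for Oxt (8 to 44 per library), Hcrt (12 to 41), Ghrh (19 to 37) and Pomc (36 to 64), and large for Lepr (442 to 841). A log2 difference between genotypes was accordingly known to within an SE of 0.0538 for Lepr and of 0.144 to 0.246 for the first 4 genes.

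The genotypes were compared with edgeR's quasi-likelihood test with litter and sex in the model, over all 17927 genes. None of the 10 genes had an FDR under 0.05, where 0.00558% of all genes did. Capn15 itself was not called either, with a log2 fold change of -0.81 ± 0.118 (SE, FDR = 0.0747) with litter F kept. A missing call in this test therefore does not show that a gene is unchanged. Of the 10, 1 had an unadjusted p under 0.05, against 5.14% of all genes, and this was Lepr. The study lists Lepr as changed on these same brains, so this count is a description and not a test. The median log2 fold change was 0.027 over the 10 genes, with 4 below and 6 above 0, and 0.0015 over all genes. Without litter F it was -0.014 over the 10. With limma-voom and DESeq2 in place of this test, 0 of 10 and 1 of 7 were called, where 0.00558% and 0.139% of all genes tested were, since DESeq2 gave no adjusted p for Hcrt, Oxt and Ghrh, and edgeR's likelihood ratio test called 1 of the 10 and 0.19% of all genes. The gene called was Lepr in both cases. Without litter F the quasi-likelihood test called 0 of the 10 and, of all genes, 7.

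**Figure D2:**
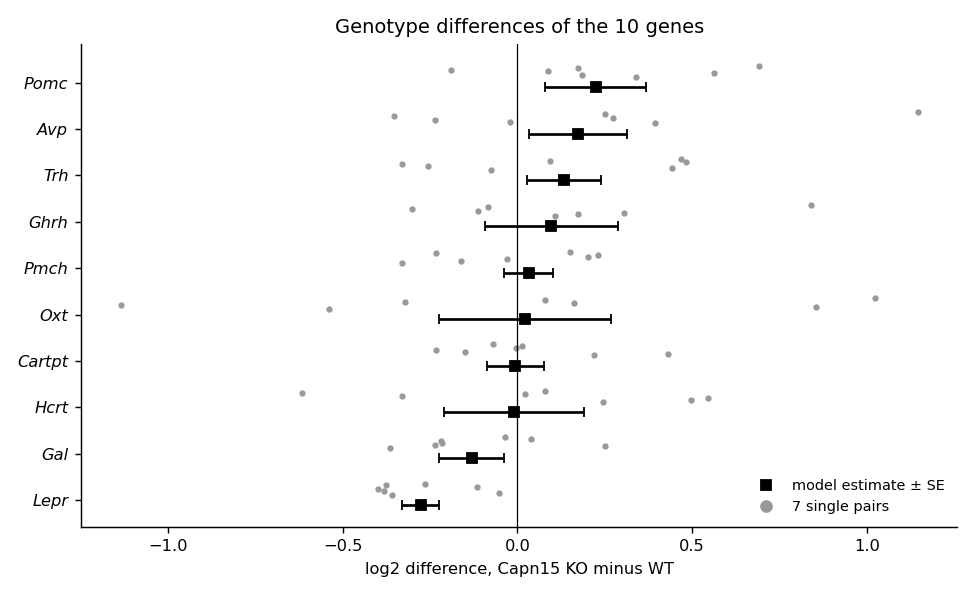
Log2 difference of Capn15 KO minus WT on the horizontal axis for each gene. Squares with bars are the estimates of the model with litter and sex ± SE and grey points the 7 single pairs. The points of Lepr all lie below 0, between -0.40 and -0.05, while the pairs of every other gene lie on both sides.

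Lepr (ENSMUSG00000057722, chr4:101717404-101815352, plus strand) encodes the receptor through which leptin signals to Stat3. In WT it was lowest at 10.3 CPM, with a median of 14.5 and a highest value of 15.6 CPM. In Capn15 KO it was lowest at 9.48 CPM, with a median of 11.6 and a highest value of 12.96 CPM. The groups overlapped through 1 brain only, since 6 of the 7 WT libraries lay above the highest Capn15 KO library and WT replicate 5 lay below all but 1 of them. The mean was 13.96 ± 1.80 CPM (SD, n = 7) in WT and 11.5 ± 1.07 CPM (SD, n = 7) in Capn15 KO, which is 82.0% of WT. The log2 fold change was -0.28 ± 0.0538 (SE), with FDR = 0.176 in edgeR's quasi-likelihood test. The study itself lists Lepr among its changed genes, on these same brains, with a larger decrease than here and an FDR under 0.05. The lower level of Lepr here is therefore not independent evidence, and the reason for the difference in size was not tested.

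Lepr was lower in the Capn15 KO brain in 7 of 7 pairs, which 0.597% of all genes were. None of the 10 was higher in 7 of 7 pairs, which 0.496% of all genes were. Mean log2 CPM of Lepr differed with p = 0.0146 in a two-sided exact permutation test over 7 and 7 libraries, and with p = 0.0156 in an exact sign-flip test over the pairs, the smallest that 7 pairs allow. Replicates 2 and 3 share litter B, so the 7 pairs are not independent and the sign-flip p can be too small. The pairs differed least in replicates 2 and 5, by -0.05 and -0.12 on the log2 scale, and by -0.26 to -0.40 in the other 5. In the litter F pair, where Capn15 itself was not lower, Lepr still differed by -0.26. Without litter F the log2 fold change was -0.28 (FDR = 0.329, edgeR's quasi-likelihood test) and the exact permutation test gave p = 0.0325 over 6 and 6 libraries. FDRs were 0.00308 with the likelihood ratio test, 0.0453 with DESeq2, 0.210 with limma-voom and 0.337 with the replicate number as a block, so the call depends on the test. Lepr was lower in Capn15 KO in all 26 alternatives, which reuse the same brains and are not independent checks.

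**Figure D3:**
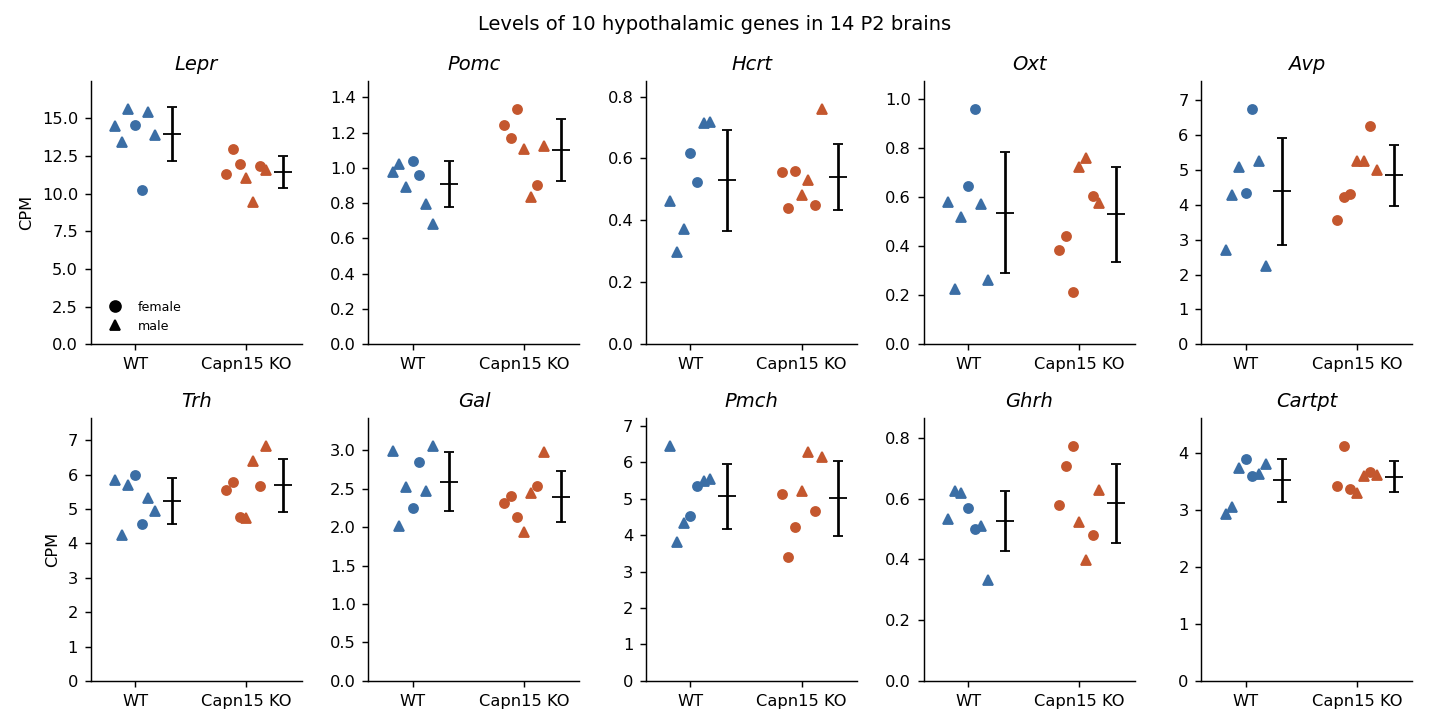
CPM of each of the 10 genes in the 7 WT and 7 Capn15 KO brains, with circles for females and triangles for males, and the mean ± SD as a bar beside each group. Every panel starts at 0 and has its own scale. Lepr shows 6 of 7 WT points above all Capn15 KO points, and the groups overlap in every panel.

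Most markers of the choroid plexus and the meninges, where Lepr is also known, had lower values in Capn15 KO brains as well. Of 17 choroid plexus markers 16 had a fold change below 0, and 11 were lower and 1 higher at an unadjusted p under 0.05, where 2.26% and 2.88% of all genes were. None had an FDR under 0.05 in edgeR's quasi-likelihood test or with limma-voom, while the likelihood ratio test called 3 and DESeq2 called 2. Without litter F the quasi-likelihood test called 1, Ttr (FDR = 0.0486), and 9 were lower and 0 higher at an unadjusted p under 0.05. The study lists Ttr and Enpp2, and the meningeal genes Ogn and Fmod, as changed on these same brains, so these are not independent evidence. In immunoblots of Capn15 KO against heterozygous brains, the study saw no significant change of the Enpp2 protein. All marker lists were chosen with earlier results of these data known. Their counts beside the shares of all genes are therefore descriptions and not a test of a tissue. Ttr, which encodes the thyroid hormone carrier transthyretin, averaged 846 ± 74.1 CPM in WT and 679.5 ± 84.2 CPM in Capn15 KO (SD, n = 7 each), with a log2 fold change of -0.32 (FDR = 0.0942). The log2 fold changes of Enpp2 and Kcne2 were -0.20 and -0.36 (FDR = 0.166 and 0.278). The 17 markers summed to 903 to 1162 CPM in WT and 751 to 1014 CPM in Capn15 KO, and the sum was lower in Capn15 KO in 7 of 7 pairs. Ttr and Enpp2 made up 88.3% to 90.4% of it. The other 15 markers summed to 98.1 to 124 CPM in WT and 84.5 to 114 CPM in Capn15 KO, also lower in 7 of 7 pairs.

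Of 14 meningeal markers 11 had a fold change below 0, and 7 were lower and 0 higher at an unadjusted p under 0.05. The likelihood ratio test called 2 at an FDR under 0.05, DESeq2 called 1, and the quasi-likelihood test called 0 with litter F and 1, Fmod (FDR = 0.00506), without it. Ogn and Fmod, which encode proteins of the extracellular matrix, had log2 fold changes of -0.39 and -0.55 (FDR = 0.176 for both), and the transporter gene Slc6a13 had -0.14 (FDR = 0.475). The 14 markers summed to 421 to 570 CPM in WT and 442 to 538 CPM in Capn15 KO, lower in Capn15 KO in 5 of 7 pairs. No marker of these lists was at 0 in any library. By contrast, the 12 endothelial markers had a median log2 fold change of 0.018, with 0 lower and 1 higher (Cldn5, 0.10, FDR = 0.959), and the 8 pericyte markers had 0.014, with no unadjusted p under 0.05 in edgeR's quasi-likelihood test. Of 7 tanycyte markers 1 was higher (Lhx2, 0.14, FDR = 0.470, higher in 7 of 7 pairs). Of the 7, 4 had a fold change below 0 and 3 above, with a median of -0.015. The cells that hold Lhx2 cannot be told from whole brain. Of 8 markers of astrocytes and radial glia 1 was lower (Gja1, -0.13, FDR = 0.824).

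Across brains, Lepr moved with the meningeal markers. With genotype means subtracted, Lepr and the mean log2 CPM of the meningeal markers had Pearson's r = 0.864 over 14 libraries (permutation test, p = 5e-05, adjusted p = 0.00075 over the 15 relations computed) and Spearman's rho = 0.895 (adjusted p = 0.0009, permutation test). Without WT replicate 5 and Capn15 KO replicate 5, the 2 libraries farthest from the median of Lepr, r was 0.851, and with the litter means removed as well it was 0.960. For the choroid plexus markers r was 0.682 (adjusted p = 0.0213, permutation test) with rho = 0.446 (adjusted p = 0.209), but 0.168 without the same 2 libraries and -0.31 with litter means removed, so that relation rests on litter D. For the endothelial markers r was 0.136 (adjusted p = 0.707, permutation test) and rho -0.02 (adjusted p = 0.952). The permutations moved all 14 libraries freely and so treated litter mates as independent, which can make these p-values too small. Once litter means are removed the brains of a pair mirror each other, so those values rest on fewer independent brains than 14. The genes most like Lepr by the same measure, of 15215 compared, were C1qtnf7 (r = 0.871), Lrguk (0.870) and Vstm4 (0.862). The part of these marker levels in the difference of Lepr between genotypes was not tested.

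**Figure D4:**
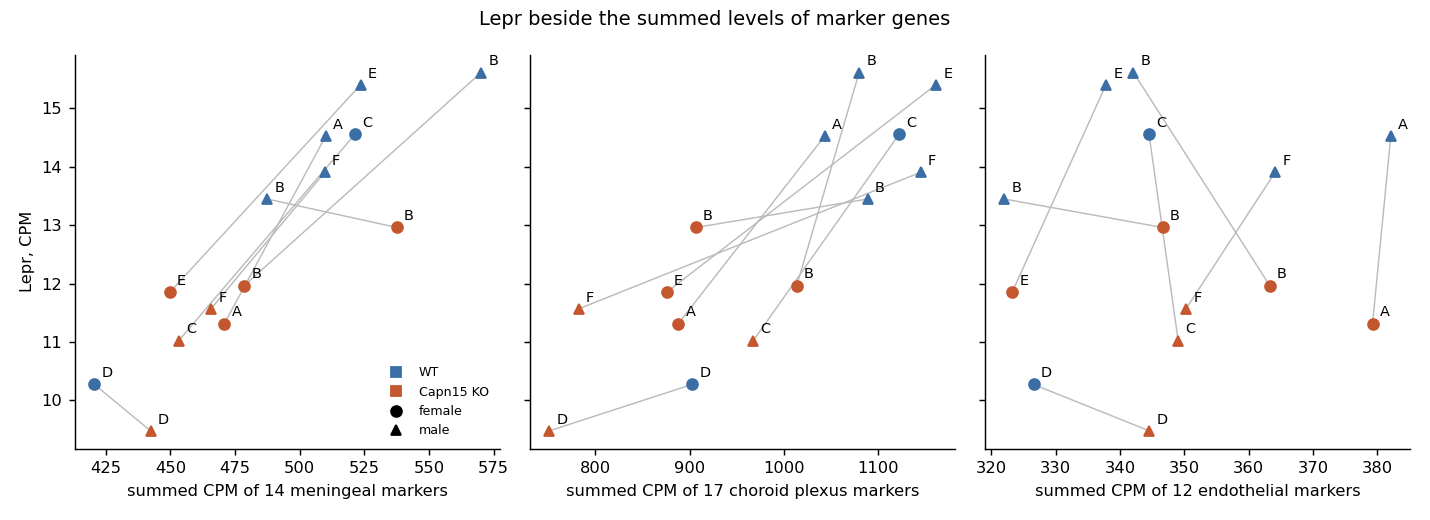
Lepr in CPM against the summed CPM of 14 meningeal, 17 choroid plexus and 12 endothelial markers, 1 point per brain, with letters for litters and grey lines joining the pairs. The axes do not start at 0. Lepr is higher in brains with a higher meningeal sum. Litter D has the lowest sums in the first panel and the lowest within each genotype in the second, and no such order is seen for the endothelial markers.

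Genes of leptin signalling other than the receptor showed no difference at an unadjusted p under 0.05 in this test, in 13 of 14 listed genes (Lep was not analysed here). Their median log2 fold change was -0.015. Leprot, which encodes a protein that lowers the leptin receptor at the cell surface, had a log2 fold change of -0.047 (FDR = 1.0) and was lower in 7 of 7 pairs, from 46.4 ± 1.56 CPM (SD, n = 7) in WT to 44.8 ± 1.56 CPM in Capn15 KO. Irs2, an adaptor of insulin and leptin signalling, had 0.067 (FDR = 0.972) and Stat5b, which transmits cytokine signals, had -0.055 (FDR = 1.0).

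Pomc (chr12:3954951-3960642, plus strand), the precursor of melanocortins and beta-endorphin, was between 0.681 and 1.04 CPM in WT with a median of 0.958, and between 0.834 and 1.33 CPM in Capn15 KO with a median of 1.13. Of the Capn15 KO brains 5 of 7 lay above the WT range, and the lowest WT value was that of the library labelled WT replicate 7. The means were 0.909 ± 0.130 and 1.10 ± 0.178 CPM (SD, n = 7 each). The log2 fold change was 0.22 ± 0.144 (SE, FDR = 1.0, edgeR's quasi-likelihood test), and Pomc was higher in Capn15 KO in 6 of 7 pairs. The two-sided exact permutation test gave an unadjusted p = 0.0484 over 7 and 7 libraries and the exact sign-flip test p = 0.0781. Without litter F the exact permutation p was 0.143 and the log2 fold change 0.14, so the difference is not separated from the spread between brains. Pomc is also made in the pituitary. Of 12 pituitary genes only Pax7 was analysed here, and it is also a factor of the midbrain, so the list gives no measure of pituitary tissue in these samples.

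Cartpt (chr13:99898489-99901091, minus strand), made by Pomc neurons among others, was the steadiest of the 10. It was between 2.92 and 3.88 CPM in WT, with a median of 3.63, and between 3.30 and 4.12 CPM in Capn15 KO, with a median of 3.58. The groups lay over the same range, and the log2 fold change was -0.0058 ± 0.0809 (SE). Between Pomc and Cartpt no relation was detectable across the 14 brains, at a depth where the spread of both genes was near counting error (r = -0.32, adjusted p = 0.362, rho = -0.27, adjusted p = 0.394, permutation test). Ghrh (chr2:157329497-157347506, minus strand) was between 0.332 and 0.624 CPM in WT, with a median of 0.534, and between 0.398 and 0.773 CPM in Capn15 KO, with a median of 0.579. Its log2 fold change was 0.097 ± 0.189 (SE), and without litter F it was -0.045. The lowest Ghrh value was that of the library labelled WT replicate 7.

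Avp was between 2.24 and 6.75 CPM in WT, with a median of 4.35, and between 3.58 and 6.27 CPM in Capn15 KO, with a median of 4.999. The WT brains held both the lowest and the highest value, WT replicates 7 and 5, and the Capn15 KO brains lay between them. The log2 fold change was 0.17 ± 0.140 (SE, FDR = 1.0), with 4 of 7 pairs higher in Capn15 KO. The litter F pair alone differed by 1.15 on the log2 scale, and without litter F the log2 fold change was 0.017 ± 0.102 (SE). Leaving out WT replicate 5 or Capn15 KO replicate 5 raised it to 0.39 (FDR = 0.514, edgeR's quasi-likelihood test), so that it depends on litter D as well.

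Oxt, which encodes oxytocin, was between 0.225 and 0.958 CPM in WT, with a median of 0.571, and between 0.213 and 0.758 CPM in Capn15 KO, with a median of 0.576. Both groups spanned more than a 3-fold range and lay over each other. The lowest value, Capn15 KO replicate 3, rested on 8 counts with a 95% Wilson interval from 0.108 to 0.421 CPM, and the highest, WT replicate 5, on 44 counts with an interval from 0.713 to 1.29 CPM. These intervals cover counting error only and do not overlap. The log2 fold change between genotypes was 0.022 ± 0.246 (SE), and -0.14 ± 0.236 (SE) without litter F, so that a change of moderate size in either direction could not be detected.

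The litter test called Avp and not Oxt (FDR = 0.124), whose counts were small. Mean Oxt per litter ran from 0.349 CPM in litter B to 0.858 CPM in litter D, a 2.46-fold range, and mean Avp from 3.15 CPM in litter A to 6.01 CPM in litter D. Oxt and Avp had r = 0.574 over 14 libraries after genotype means were subtracted (p = 0.0312, adjusted p = 0.0658, permutation test) and rho = 0.635 (adjusted p = 0.0626). Without Capn15 KO replicate 3 and WT replicate 2 r was 0.790, and with litter means removed it was 0.599, so the relation misses the threshold after adjustment. Without litter F r was 0.449 and rho 0.587 (adjusted p = 0.239 and 0.139, permutation test). Between 4.68 and 20.3 Avp counts were found per Oxt count, with a median of 8.95. The highest ratio was that of Capn15 KO replicate 3 and the lowest that of WT replicate 1. The part of reads from the shared run of 127 bases in this relation was not tested.

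**Figure D5:**
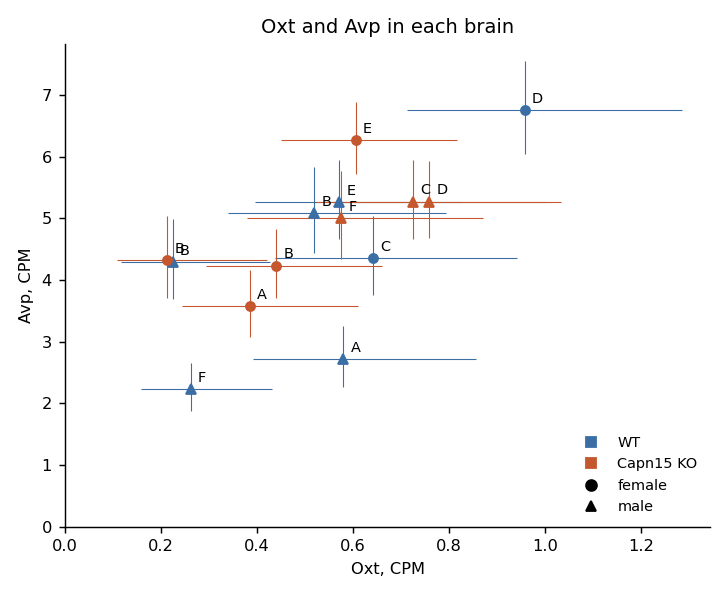
Avp against Oxt in CPM, 1 point per brain, with 95% Wilson intervals for counting error and litter letters. Litter D lies at the upper right, at up to 0.958 CPM of Oxt and 6.75 CPM of Avp, and the library labelled WT replicate 7 (litter F) lies lowest on the Avp axis at 2.24 CPM.

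Hcrt (chr11:100761069-100762931, minus strand) was between 0.299 and 0.716 CPM in WT, with a median of 0.522, and between 0.440 and 0.759 CPM in Capn15 KO, with a median of 0.531. Pmch (chr10:88091072-88092375, plus strand) was between 3.82 and 6.45 CPM in WT, with a median of 5.35, and between 3.41 and 6.29 CPM in Capn15 KO, with a median of 5.12. The groups lay over each other for both genes. The log2 fold changes were -0.0098 ± 0.200 for Hcrt and 0.032 ± 0.0694 for Pmch (SE). Hcrt and Pmch had r = 0.565 (adjusted p = 0.0658, permutation test), rho = 0.508 (adjusted p = 0.142), 0.345 without Capn15 KO replicate 7 and WT replicate 2, and 0.099 with litter means removed. The genes most like Pmch were Mid2 (r = 0.958), Lrrc8c (0.951) and Plekhm3 (0.945).

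Trh (chr6:92242061-92244650, minus strand) was between 4.24 and 5.98 CPM in WT, with a median of 5.33, and between 4.75 and 6.83 CPM in Capn15 KO, with a median of 5.68. Gal (chr19:3409915-3414544, minus strand) was between 2.02 and 3.06 CPM in WT, with a median of 2.52, and between 1.93 and 2.98 CPM in Capn15 KO, with a median of 2.41. Both groups overlapped over most of their range in each gene. The log2 fold change was 0.13 ± 0.106 (SE) for Trh and -0.13 ± 0.0929 (SE, FDR = 1.0 for both) for Gal, and Gal was lower in Capn15 KO in 5 of 7 pairs. The value of Trh was 0.068 without litter F, 0.0098 without WT or Capn15 KO replicate 5 and 0.32 without WT or Capn15 KO replicate 4 (FDR from 0.464 to 1.0, edgeR's quasi-likelihood test). Among the genes most like Trh were Csdc2 (r = 0.848) and Cnnm2 (0.833), and those most like Gal were Cda (0.915), Gal3st1 (0.910) and Avpi1 (0.882). For Avp they were 2900052N01Rik (0.911), Gm3005 (0.865) and Kcnh4 (0.858), for Pomc Rai2 (0.848), Mfsd5 (0.836) and Ror1 (0.836), and for Cartpt Ldhd (0.908), Tmem268 (0.850) and Arsk (0.832). These are descriptions over 14 libraries that share litters.

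Litter separated more genes than genotype or sex did, among the 10 as over all genes. The F test of litter in the same model called 3 of the 10 (Lepr, FDR = 0.0154, Avp, 0.0496, and Pmch, 0.00681), close to the 29.6% of all genes it called. Lepr was lowest in litter D, at a mean of 9.88 CPM, and highest in litter E, at 13.6 CPM. Pmch ran from 3.95 CPM in litter B to 5.84 CPM in litter F, and Gal from 2.09 CPM in litter C to 3.02 CPM in litter F. The litter means of Trh and Cartpt spanned only 1.15-fold and 1.17-fold. For sex, 0 of the 10 genes had an FDR under 0.05, where 0.0669% of all genes did. At an unadjusted p under 0.05 the sex term met 1 of the 10, Pmch, against 5.04% of all genes. Pmch was at 4.55 ± 0.691 CPM in females (SD, n = 6) and at 5.41 ± 0.940 CPM in males (SD, n = 8), with a log2 difference of male minus female of 0.22 ± 0.0753 (SE, FDR = 0.927, edgeR's quasi-likelihood test). The genotype difference did not depend on sex in any of the 10 at an FDR under 0.05 in this test, where 0.00558% of all genes did. At an unadjusted p under 0.05 it met 1 of the 10, Avp, against 6.85% of all genes. That interaction can be estimated only because both brains of litter F were male, so it compares 1 pair with the others. For Avp, which had the smallest p, it was 2.29 ± 0.556 (SE, FDR = 0.444).

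The peptide genes were then set beside 19 hypothalamic transcription factors, of 23 listed. None had an FDR under 0.05 or an unadjusted p under 0.05 between genotypes in edgeR's quasi-likelihood test, and their median log2 fold change was 0.037. Fezf1, Six3 and Tbx3 had the smallest p, with log2 fold changes of 0.34 (FDR = 0.972), 0.17 and -0.17 (FDR = 1.0 for both). Without litter F these were 0.16, 0.16 and -0.16. Their summed level was highest in litter B, at 521 CPM in WT replicate 2 and 522 CPM in Capn15 KO replicate 3, and lowest in litter F, at 399 and 408 CPM. Arnt2, Pou3f2 and Lhx9, at means of 253, 79.4 and 52.6 CPM in WT, made up most of this sum, so it says little about the other factors. The mean log2 CPM used below weighs the 19 factors alike. Whole brain does not show how much of each factor comes from the hypothalamus, so this mean is not a measure of hypothalamic tissue. Ghrh rose with the mean of the factors (r = 0.715, adjusted p = 0.0188, permutation test, rho = 0.618, adjusted p = 0.0628), while Pmch (r = -0.72, adjusted p = 0.0188, rho = -0.82, adjusted p = 0.0039), Gal (r = -0.69, adjusted p = 0.0213, rho = -0.72, adjusted p = 0.0254) and Hcrt (r = -0.66, adjusted p = 0.0253, rho = -0.57, adjusted p = 0.0875) fell with it in the same permutation test. The permutations ignored litter, so their p-values can be too small. Without the 2 farthest libraries r was 0.577, -0.60, -0.55 and -0.47. With litter means removed these became 0.645 for Ghrh, 0.127 for Pmch, -0.42 for Gal and -0.01 for Hcrt, none with an adjusted p under 0.05. For Ghrh this value with litter means removed was 0.161 without WT replicate 7 and Capn15 KO replicate 7, so the relation within litters rests on litter F. Over the 12 libraries without litter F, with litters kept, r was 0.637 for Ghrh (adjusted p = 0.0771, permutation test), -0.82 for Pmch (adjusted p = 0.00952), -0.56 for Gal (adjusted p = 0.149) and -0.48 for Hcrt (adjusted p = 0.227). For Pomc, Avp, Oxt, Trh and Cartpt r was 0.464, 0.486, -0.20, -0.30 and -0.09, with adjusted p from 0.130 to 0.750 in the permutation test and rho of 0.319, 0.314, -0.27, -0.30 and 0.0901 (adjusted p from 0.394 to 0.816). For Oxt r was -0.72 without litter F (adjusted p = 0.0369, permutation test, rho = -0.59, adjusted p = 0.139).

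The other genes of the peptide pathways moved little between genotypes. Of 10 receptor genes analysed, of 16 listed, 0 passed at an unadjusted p under 0.05 in edgeR's quasi-likelihood test, and the median log2 fold change was -0.019. The orexin receptor genes Hcrtr2 and Hcrtr1 had -0.092 and -0.11 and Mchr1, the receptor of melanin-concentrating hormone, had -0.074 (FDR = 1.0 for all 3). Of 16 genes of peptide processing and granules, 1 was higher at an unadjusted p under 0.05, where 2.88% of all genes were (Pcsk1n, an inhibitor of the prohormone convertase Pcsk1, 0.098, FDR = 0.960), and Scg2 and Cpd had -0.040 and 0.041 (FDR = 1.0 for both). Of 17 other neuropeptide genes analysed, of 28 listed, 2 were lower and 0 higher at an unadjusted p under 0.05, where 2.26% and 2.88% of all genes were. Without litter F 1 was lower. These were Tac1, the precursor of substance P, at 28.4 ± 1.36 CPM in WT and 26.7 ± 1.26 CPM in Capn15 KO (SD, n = 7 each), with -0.11 (FDR = 0.642, edgeR), and Adcyap1, which encodes PACAP, with -0.098 (FDR = 0.938). Pnoc, the precursor of nociceptin, had -0.072 (FDR = 1.0). Agrp, Kiss1 and Gnrh1 were not analysed here.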

How the data were processed

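RNA was sequenced from 14 P2 mouse brains (7 WT, 7 Capn15 KO). The authors trimmed reads with Trimmomatic, aligned them to GRCm38 with STAR and deposited raw counts for 17927 genes, with no normalization. The methods name HTSeq-count and a ScriptSeq kit, and the labels featureCounts and a stranded TruSeq kit. The annotation release, the strand setting and the filter on genes are not given in the sources used here. All samples carry the same batch label. The labels gave the genotype, and the names of the count columns the litter and the sex. A separate deposited table gave gene symbols. The 10 genes and all gene lists were chosen with earlier results of these data known.

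Counts were fitted in R 4.3.3 with edgeR 4.0.16 (quasi-likelihood test, TMM factors, no filter beyond 1 count per gene, terms for litter, sex and genotype) and p-values were adjusted over all genes by the Benjamini-Hochberg method (FDR threshold 0.05). Alternatives used DESeq2 1.42.0, limma 3.58.1, edgeR's likelihood ratio test, other filters, scalings and covariates, a replicate block, and each library left out in turn. Log2 CPM used a prior count of 2. Single genes were compared in Python 3.11.15 (numpy 2.4.6, scipy 1.17.1, pandas 2.3.3, statsmodels 0.14.6) by two-sided exact permutation over 3432 regroupings (smallest p 0.000583), and relations with 100000 permutations. The permutations of the relations moved all libraries freely and ignored litter. Figures used matplotlib 3.10.9. The fits were tested on simulated data. Exon lengths and positions are from GENCODE M21, and promoters from RefSeq. Nothing says that brains were pooled, and each was taken as 1 replicate. No 2 libraries of a group were alike within counting error (lowest chi-square 5.62 per gene). Same-numbered brains share a litter in the column names, which pairs them. The correlations of their deviations from the group means over 15227 genes were 0.319, 0.416, 0.323, -0.47, -0.10, -0.07 and 0.443 for replicates 1 to 7. All members were named. From the other lists up to 3 genes with the smallest p were named, and for each member at a mean of at least 1 CPM the 3 genes most like it across libraries, of which 1 is not reported here.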

Additional observations from a re-analysis of the deposited data

Results flagged for a closer look

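In groups of 7 libraries, 4 of 22 comparisons of the highest or lowest library with its nearest neighbour (Capn15 and the 10 genes, in WT and in Capn15 KO) exceeded Dixon's 95% limit, where chance gives about 1.1. The ratio is the gap divided by the range of the group on the log2 CPM scale. The library labelled WT replicate 7 was lowest for Capn15 in WT (ratio 0.761, 4.23 against 4.64 for the next), and the library labelled Capn15 KO replicate 7 was highest for Capn15 in Capn15 KO (ratio 0.647, 4.34 against 3.87). For Lepr, WT replicate 5 of litter D was lowest in WT (ratio 0.643, 3.37 against 3.75), and its litter mate, Capn15 KO replicate 5, was the lowest of the Capn15 KO libraries. For Ghrh, the library labelled WT replicate 7 was lowest in WT (ratio 0.645, -1.42 against -0.88). These counts of Ghrh were small, with 19 in that library.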

How the results depend on the processing

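Over 26 alternatives, the genotype fold changes of the 10 genes gave 260 values, of which 220 kept their direction and their side of the threshold. In 3, all of Lepr, the threshold was passed, and 37 changed sign, all in Hcrt, Oxt, Pmch, Ghrh and Cartpt. The alternatives reuse the same brains, so these values are not independent checks. Leaving out WT or Capn15 KO replicate 4 gave nearly the same fit (Lepr -0.22 in both). The same held for WT or Capn15 KO replicate 5 (Lepr -0.33 in both). The count of genes called, 1 at first, was 34 with the likelihood ratio test, 22 with DESeq2, 2 with litter but not sex and 7 over the 12 libraries of litters A to E. With the replicate block in place of litter it was 0 in edgeR's quasi-likelihood test, with 811 genes at an unadjusted p under 0.05, and the pairing changed no call of the 10 genes. The likelihood ratio test over the 13 libraries without Capn15 KO replicate 7, chosen after seeing the data, called 38. Leaving out 1 library gave 0 to 7 genes, with 670 to 1447 at an unadjusted p under 0.05, and 0 of the 10 genes. It gave 6 without WT replicate 7, 7 without Capn15 KO replicate 7, 2 without Capn15 KO replicate 3, 1 without WT replicate 2 and 0 without any other. The gene called at first was not Lepr, and the cause of these shifts was not tested.

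Of the 10 genes 1, Lepr, was called by the likelihood ratio test, by DESeq2 and by the likelihood ratio test over 13 libraries. The interaction of genotype and sex called 1, Avp (FDR = 0.0351), in edgeR's likelihood ratio test. In the single-gene permutation test 2 genes, Lepr and Pomc, had an unadjusted p under 0.05, and 1 did without TMM factors or over 12 libraries. Of 15 relations 6 had an adjusted p under 0.05 in permutations that ignored litter, and 1, of Lepr with the meningeal markers, with litter means removed. Over 12 libraries, chosen after seeing the data, 4 did.

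Sign changes in the log2 fold change gave 0.0039 for Hcrt with DESeq2. With litter but not sex they gave 0.024 for Hcrt, -0.025 for Pmch and 0.030 for Cartpt, with sex but not litter 0.014 for Hcrt, -0.0021 for Oxt and 0.00092 for Cartpt, and with genotype alone -0.022 for Pmch and 0.026 for Cartpt. Over 12 libraries, and by the likelihood ratio test over 13, they gave -0.14 for Oxt, -0.045 for Ghrh and 0.0064 and 0.0065 for Cartpt. Leaving out 1 library moved Lepr between -0.33 and -0.22 (FDR 0.0973 to 0.541, edgeR's quasi-likelihood test), Pomc between 0.13 and 0.32, Avp between 0.014 and 0.39, Trh between 0.0098 and 0.32, Hcrt between -0.072 and 0.13, Oxt between -0.14 and 0.22, Ghrh between -0.048 and 0.21 and Cartpt between -0.057 and 0.032. No sex call among the 10 arose in 23 alternatives, and litter called 3 to 4. The planned fit without Capn15 KO replicate 7 is the same as that of leaving out this library. Depth limits Oxt, Hcrt, Ghrh and Pomc most, and litter F limits Pomc, Avp and Ghrh.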
